A study of Mus musculus with 14 samples.

Results

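The genes described here encode enzymes and a reader of histone acetylation. They comprise the writers Crebbp, Ep300, Kat2a and Kat2b, the reader Brd2, and the erasers Hdac1, Hdac2, Hdac3 and Hdac4. The members were 9 of 21755 protein-coding genes on chromosomes 1 to 19 and X. Sites of histone H3 acetylated at lysine 27 (H3K27ac) were assigned to a gene when at least 1 bp lay in its annotated body or in the 5 kb upstream of its 5′ end. In this way 91 of 122228 sites of the deposited list fell to the 9 genes.

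Histone acetyltransferases, the writers, transfer acetyl groups to lysines in histone tails, and bromodomain proteins such as BRD2 bind to the acetylated lysines. Histone deacetylases (HDACs) remove the acetyl groups. CREBBP (CBP) and EP300 (p300) are the main enzymes that acetylate H3K27, which marks active promoters and enhancers.

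The cells were immortalised mouse embryo fibroblasts (iMEF) that express a lentiviral, N-terminally tagged human ASH2L, FKBP-HA2-ASH2L, in place of the endogenous protein, whose alleles were inactivated by deletion of exon 4. ASH2L is a core subunit of the COMPASS complexes that methylate H3K4. The tag, FKBP12F36V, makes the protein a target of dTAG-13, a small molecule that links it to an E3 ubiquitin ligase and thereby triggers its degradation. Chromatin immunoprecipitation followed by sequencing (ChIP-seq) comprised 14 libraries in 8 groups. These were 2 H3K27ac libraries each of untreated control cells and of cells treated with dTAG for 30 min, 2 h, 4 h, 8 h or 16 h, and 1 input library each of control cells and of cells after 16 h. Control and treated cells all carry the tagged ASH2L and lack the endogenous protein. The dTAG system was set up in clonal cell lines, and the H3K27ac libraries are described as from clone NG3, so that the sites are those of a single clone. The list covers the H3K27ac ChIP-seq as a whole and gives positions only (chromosome, start, end). It has no value per library, so that read depth is unknown, replicates and time points cannot be compared, and neither an error nor a test can be given for any value below. A site may stem from any of the time points. Expression was not measured in the list, and the fibroblast identity of the cells was not checked here.

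Each of the 9 genes had at least 1 site, as did 64.0% of all protein-coding genes. The sites were distributed unevenly. Hdac4 had 46 sites and Kat2b had 18, and these 2 genes accounted for 70.3% of the 91 sites. Hdac3 had 8 sites, Brd2 6, Ep300 5, Hdac1 3, Crebbp and Kat2a 2 each, and Hdac2 had 1. Of the 91 sites, 6 held the 5′ end of the gene, 7 lay upstream of it, 12 overlapped an exon without holding the 5′ end, and 66 were intronic, that is within the gene body and outside the exons of all its transcripts.

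The sequences that separate the sites at gene starts are shown first, because in 5 of the 9 genes a gap of at most 336 bp between neighbouring sites touched the window from -200 to +50 bp of the 5′ end. In all 5 the 5′ end lay in this gap or at most 16 bp from it. A gap in that window, between sites that both lie within 1 kb, was found at 3574 protein-coding genes (16.4% of all), with a median gap of 157.5 bp. Such a gap is possible only in genes with a site within 1 kb. These were 11318 of all 21755 genes but all of the 9 members. The gap measured 109 bp at Hdac3, 153 bp at Kat2a, 163 bp at Hdac1, 187 bp at Ep300 and 336 bp at Kat2b. At Hdac4 the starts of 2 of its 4 coding transcripts, Hdac4-202 and Hdac4-205, lay in a gap of 294 bp. The gaps of 4 genes are given 5′ to 3′ on the strand of the gene, as read from the GRCm38/mm10 reference. They are the whole gap of Ep300 (chr15:81585165-81585351, plus strand), the whole gap of Kat2a (chr11:100712466-100712618, minus strand), 300 bp of the gap of Kat2b (chr17:53566568-53566867, plus strand) and 248 bp of the Hdac4 gap upstream of the coding transcript Hdac4-202 (chr1:92180342-92180589, minus strand). Capitals mark the GC box (GGGCGG), the CCAAT box (CCAAT) and the ETS core (CCGGAA), each on either strand.
Ep300: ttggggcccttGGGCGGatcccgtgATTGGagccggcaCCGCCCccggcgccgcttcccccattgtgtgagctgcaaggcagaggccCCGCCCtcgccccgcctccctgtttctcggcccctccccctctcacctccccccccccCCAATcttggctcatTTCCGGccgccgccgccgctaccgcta
Kat2a: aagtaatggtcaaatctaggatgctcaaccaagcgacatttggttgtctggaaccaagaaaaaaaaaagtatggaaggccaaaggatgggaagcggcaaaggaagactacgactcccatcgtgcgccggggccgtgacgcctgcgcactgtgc
Kat2b: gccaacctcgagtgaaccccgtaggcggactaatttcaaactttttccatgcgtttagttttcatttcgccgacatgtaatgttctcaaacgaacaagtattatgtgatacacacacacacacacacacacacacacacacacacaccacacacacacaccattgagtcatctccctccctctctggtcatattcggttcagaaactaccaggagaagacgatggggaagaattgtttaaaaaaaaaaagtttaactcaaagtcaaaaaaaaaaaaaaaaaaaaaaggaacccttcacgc
Hdac4: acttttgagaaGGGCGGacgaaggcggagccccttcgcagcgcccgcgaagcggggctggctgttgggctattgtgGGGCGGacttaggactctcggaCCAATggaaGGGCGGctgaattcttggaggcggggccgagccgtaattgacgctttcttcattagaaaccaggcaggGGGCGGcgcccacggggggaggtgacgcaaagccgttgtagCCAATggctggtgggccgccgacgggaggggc

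The Ep300 gap held 3 GC boxes, 2 CCAAT boxes and 1 ETS core in 187 bp, with a GC content of 72.7%. The Hdac4 gap held 4 GC boxes and 2 CCAAT boxes, with a GC content of 65.3%. These are short motifs that are frequent in CpG-rich promoters. Neither the Kat2a gap nor the 300 bp of the Kat2b gap printed here had any of the promoter motifs searched here, and their GC contents were 51.6% and 40.3%. The Kat2b stretch includes a run of CA repeats and runs of A, and 52.7% of its bases are masked as repeats in the reference, compared with 26.7% at Ep300, 19.0% at Kat2a and 3.63% at Hdac4. Whether reads can be placed uniquely in these repeats was not tested. A match of letters is a description and not evidence of binding.

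The same motifs were counted in the RefSeq promoter windows of the GRCm38 build, which run from 250 bp before to 50 bp after a gene start. Entries were matched for 7 of the 9 members, the others being Hdac1 and Hdac3. The gene start of the window lay 593 bp (Crebbp), 863 bp (Ep300) and 15358 bp (Hdac4) downstream of the outermost 5′ end. In the other members it lay at most 110 bp from that end. The GC box was found in 4 of the 7 (Crebbp, Ep300, Hdac2 and Hdac4), compared with 48% of 20061 coding promoters. CCAAT was found in 2 (Kat2b and Hdac4), compared with 37.9%. The ETS core and the NRF1 core (GCATGCGC) were found in Brd2 alone among the 7, compared with 19.2% and 3.65% of all promoters. The Ep300 window does not include the Ep300 gap shown above, which held 2 CCAAT boxes and 1 ETS core. The TATA box (TATAAA), the cAMP response element (TGACGTCA) and the E-box (CACGTG) were found in none of the 7, compared with 12.1%, 2.32% and 8.06%. Both strands were searched, and no motif contains another. A member with several windows was counted by the window nearest its 5′ end. The 20061 coding promoters are windows, so that a gene with several windows enters those shares more than once.

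The first question was whether the mark covers the starts of these genes. The outermost annotated 5′ end lay inside a site in 6 of 9 genes, namely Crebbp, Kat2a, Brd2, Hdac2, Hdac3 and Hdac4, compared with 36.5% of all protein-coding genes. In the remaining 3 genes the nearest site began 1 bp (Ep300), 7 bp (Kat2b) and 20 bp (Hdac1) downstream of the 5′ end. Thus with a tolerance of 50 bp, which was chosen after these distances were seen, all 9 genes had a site at the 5′ end, compared with 45.3% of all genes. The difference between 6 and 9 genes thus rests on at most 20 bp. A site within 1 kb was likewise present in 9 of 9 genes and in 52.0% of all genes. These shares describe the 9 genes, and since the genes were chosen with the list known, they were not tested.

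**Figure D1:**
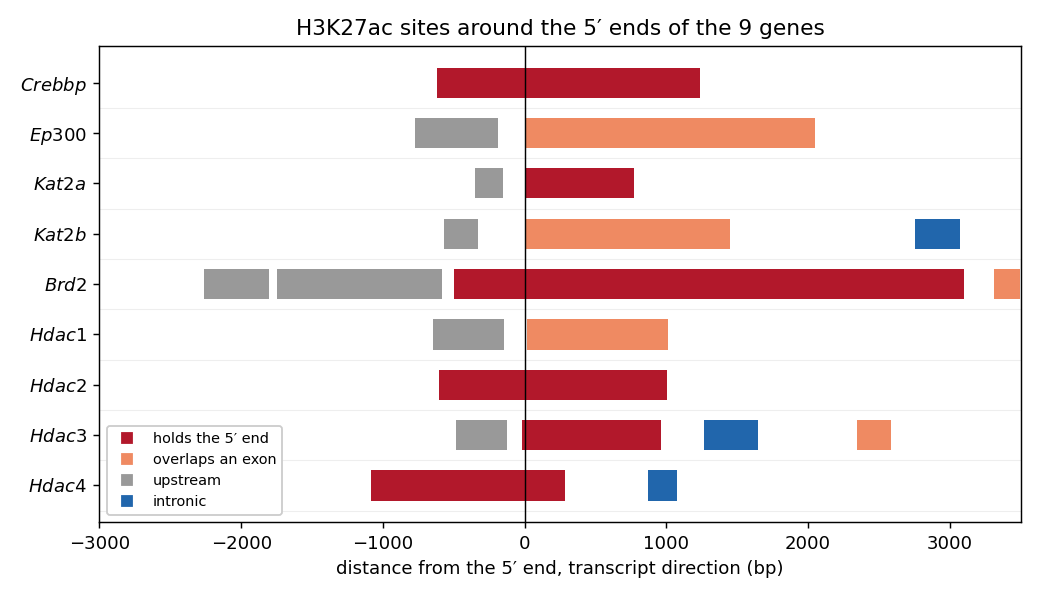
Each bar is an H3K27ac site, plotted by its distance in bp from the outermost annotated 5′ end (vertical line, transcript direction to the right) of the 9 genes; colours give the place of the site in the gene. In Ep300, Kat2a, Kat2b, Hdac1 and Hdac3 an upstream site is separated by 109 to 336 bp from a wider site that begins at the start, whereas in Hdac4 the site lies mostly upstream.

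The site at the 5′ end was the widest site of the gene in 6 of the 9 genes. Across the 9 genes its width had a median of 1440 bp and a range of 773 to 3605 bp. Over the 11318 protein-coding genes with a site within 1 kb of the 5′ end the median was 1095 bp, with quartiles of 695 and 1675 bp. The 5′ sites of 6 of the 9 genes were wider than that median, and those of Kat2a, Hdac1 and Hdac3 were narrower. The sites extended mainly into the genes. A median of 99.3% of the first 1 kb downstream was in sites, compared with 58.7% of the 1 kb upstream. More of the downstream than of the upstream kb was covered in 8 of 9 genes, Hdac4 being the exception, and in 77.1% of all genes with a site within 1 kb.

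Among the writers, Crebbp and Ep300 are close paralogues whose products share the KIX, bromo- and acetyltransferase domains. The Crebbp 5′ site (chr16:4212758-4214616) was 1859 bp wide and extended from 619 bp upstream to 1239 bp downstream of the 5′ end. It holds the first exon, including coding sequence, and the starts of the transcripts Crebbp-201 and Crebbp-205. The Ep300 5′ site (chr15:81585352-81587397) was 2046 bp wide and ended 2046 bp downstream. It covered the start of Ep300-201, the representative coding transcript with 31 exons, 46 bp inside the gene. Both 5′ sites were thus wider than the upper quartile of 1675 bp over all genes. They differed upstream. Crebbp had a single continuous site, whereas Ep300 had a second site of 587 bp (-773 to -187) beyond the gap shown above. This upstream site holds the start of the neighbouring gene 1110025M09Rik, so that it cannot be assigned to Ep300 alone. The Ep300 5′ site likewise holds an annotated start of another gene, Gm23880.

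Kat2a (GCN5) and Kat2b (PCAF) are the paired acetyltransferases of the SAGA-type and ATAC complexes and mainly acetylate H3K9. The Kat2a 5′ site (chr11:100711693-100712465) was, at 773 bp, the narrowest of the 9. Its edge coincides with the 5′ end itself, and an upstream site of 200 bp (-353 to -154), the narrowest width in the list, lies across the gap. The Kat2b 5′ site (chr17:53566868-53568307) was 1440 bp wide. The coding transcript Kat2b-201 starts inside it, at +110 bp, and a narrow site of 240 bp (-569 to -330) lies upstream. Of the first 1 kb of the gene 77.3% was in sites at Kat2a and 99.3% at Kat2b, whereas upstream the cover was low in both, at 20% and 24%.

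Brd2 encodes a BET protein with a pair of bromodomains that binds acetylated histones and is located within the major histocompatibility region. Its 5′ site (chr17:34119531-34123135) was the widest of the 9 at 3605 bp, and wider than 99.0% of the sites of the list. It extended from 501 bp upstream to 3103 bp downstream and held the starts of 8 Brd2 transcripts. It also contains annotated starts of H2-DMa, which codes for an MHC class II chaperone, and of CR974462.3. The 2 sites upstream, of 1164 and 461 bp, lie in H2-DMa. Thus part of the acetylated region at the 5′ end of Brd2 is shared with its neighbour, and the part of each gene cannot be told apart from positions.

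Hdac1 and Hdac2 encode the paralogous catalytic subunits of the SIN3, NuRD and CoREST corepressor complexes. The 5′ site of Hdac1 (chr4:129541701-129542693) was 993 bp wide and began 20 bp inside the gene. A site of 502 bp (-645 to -144) lies upstream. The 5′ site of Hdac2 (chr10:36973940-36975547) was 1608 bp wide, continuous across the 5′ end, and the sole site of this gene. Measured from the outer edges, the acetylated stretch was of like extent in both paralogues, with 1658 bp at Hdac1, including the gap, and 1608 bp at Hdac2. The 5′ end lay in the gap in one and within the site in the other.

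Hdac3, the catalytic subunit of a nuclear receptor corepressor complex, had a 5′ site of 980 bp (chr18:37954053-37955032), which extends just 16 bp upstream of the 5′ end. The upstream site of 361 bp holds the start of Rell2, a gene that runs in the opposite direction. Hdac4 encodes a class IIa deacetylase, which has little catalytic activity of its own and shuttles between cytoplasm and nucleus. Its 5′ site (chr1:92195413-92196782) was 1370 bp wide, and 1083 bp of it lay upstream. It holds the starts of Hdac4-211 and Hdac4-212, which are not annotated as protein-coding.

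The 4 coding transcripts of Hdac4 start further downstream. Hdac4-202 and Hdac4-205 start at +15358 and +15402 bp, in the gap of 294 bp between a site of 798 bp and a site of 1331 bp (chr1:92178965-92180295). The nearest edge of the latter was 46 and 2 bp away. Hdac4-201, the representative coding transcript with 26 exons, starts at +47306 bp, and the nearest site was 2250 bp away. Over the 9 genes 14 of 28 starts of protein-coding transcripts lay inside a site, and 17 lay inside or at most 50 bp from one. By this measure 7 of the 9 genes had a coding start inside a site, compared with 46.3% of all protein-coding genes and with 49 of the 51 other acetylation genes listed at the end. With the tolerance of 50 bp, chosen after seeing the data, it was 9 of 9, compared with 50.9% of all genes. Without the tolerance, and relative to the count by outermost 5′ end, Kat2b and Ep300 entered through coding starts within the gene, and Hdac4 dropped out.

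The base composition around the 5′ ends was examined next, since H3K27ac at promoters is often found with CpG islands. A 5′ end was called CpG-rich when the surrounding 1001 bp had a GC content of at least 50% and a ratio of observed to expected CpG dinucleotides of at least 0.6. By this definition 6 of the 9 genes were CpG-rich, compared with 44.8% of all protein-coding genes. Crebbp had the highest ratio with 1.03, followed by Kat2b with 0.848, Hdac2 with 0.830, Hdac1 with 0.783, Brd2 with 0.745 and Ep300 with 0.731. Kat2a (0.565) and Hdac3 (0.560) missed the limit narrowly, with GC contents of 57.6% and 59.6%. Hdac4 was clearly below it, with a ratio of 0.271 and a GC content of 45.5%. In contrast, the Hdac4 site next to the starts of Hdac4-202 and Hdac4-205 had a ratio of 0.976.

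The 66 intronic sites were distributed over 6 genes. Hdac4 had 41, Kat2b 15, Hdac3 5, Ep300 3, and Crebbp and Hdac1 had 1 each, whereas Kat2a, Brd2 and Hdac2 had none. At least 1 intronic site was present in 33.6% of all protein-coding genes, without regard to gene length. Intronic sites were narrow, with a median width of 382 bp and a range of 200 to 1952 bp. Of the 66, 12 were wider than 1000 bp, and 19 measured 250 bp or less. Their GC content had a median of 47.9% and their CpG ratio a median of 0.140, compared with 64.6% and 0.700 for the 5′ sites of the 9 genes. The 5′ site of Hdac4, the gene with 41 of the 66 intronic sites, had 46.6% and 0.229. Both values were the lowest of the 9 and near the intronic medians. In median width and composition the intronic sites resembled the 99286 sites of the list more than 1 kb from any transcription start site (TSS), which had medians of 369 bp, 48.2% and 0.183.

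The low CpG content of intronic sites can be read in the central 200 bp of single sites. The sites chosen are the sole intronic site of Crebbp (chr16:4139247-4139446, minus strand) and the widest intronic sites of Kat2b (chr17:53587400-53587599, plus strand) and of Hdac4 (chr1:92086711-92086910, minus strand). They are printed 5′ to 3′ on the strand of the gene from GRCm38/mm10, with CpG dinucleotides in capitals.
Crebbp: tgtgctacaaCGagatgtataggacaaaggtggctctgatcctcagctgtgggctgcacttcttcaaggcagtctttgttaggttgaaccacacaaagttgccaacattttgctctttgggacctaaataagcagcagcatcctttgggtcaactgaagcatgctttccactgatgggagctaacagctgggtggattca
Kat2b: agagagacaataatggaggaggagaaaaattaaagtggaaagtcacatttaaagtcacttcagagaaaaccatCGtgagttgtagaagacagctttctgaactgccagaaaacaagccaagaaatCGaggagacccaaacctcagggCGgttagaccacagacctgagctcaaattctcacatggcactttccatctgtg
Hdac4: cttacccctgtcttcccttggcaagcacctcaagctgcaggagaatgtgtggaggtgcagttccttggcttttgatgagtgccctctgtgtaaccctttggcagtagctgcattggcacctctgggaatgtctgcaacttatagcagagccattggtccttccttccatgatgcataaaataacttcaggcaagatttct

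These 3 stretches had 1, 3 and 0 CpGs. The central 200 bp of the most CpG-rich site of the same genes had 38 CpGs in Crebbp, 23 in Kat2b and 13 in Hdac4. These sites were picked for the highest CpG ratio, so that their higher counts were built into the choice. They are the 5′ sites in Crebbp and Kat2b. In Hdac4 that site is the one next to the starts of Hdac4-202 and Hdac4-205. It is not the 5′ site, whose CpG ratio was 0.229. The intronic stretches had GC contents of 47.5%, 43.5% and 49%.

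**Figure D2:**
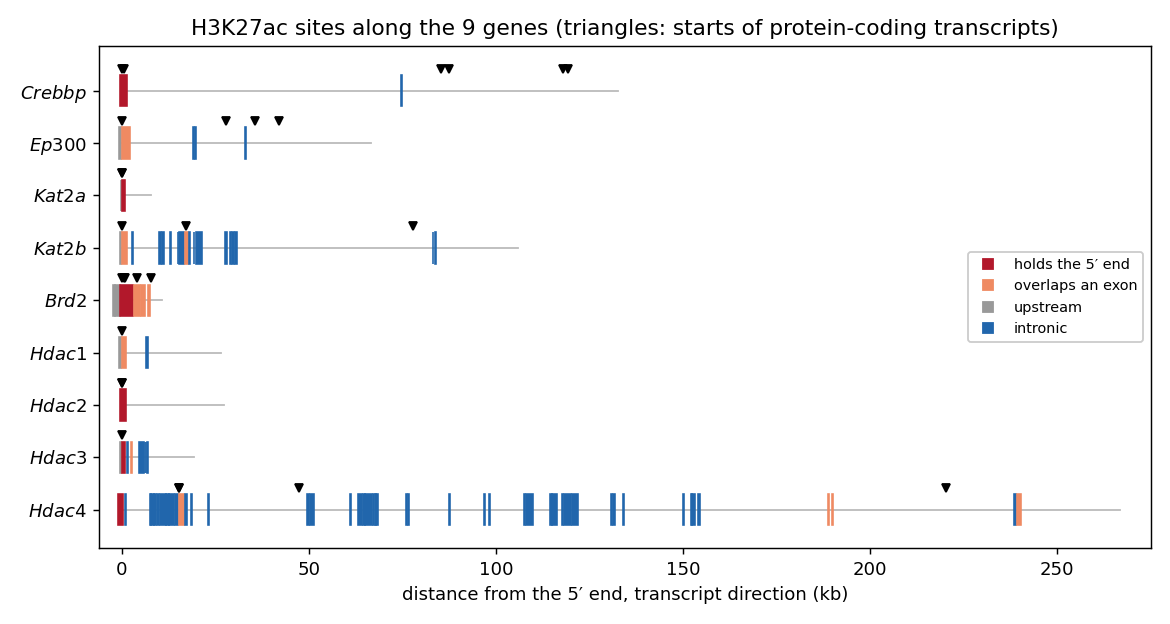
H3K27ac sites along the 9 genes, by distance in kb from the outermost 5′ end; grey lines are gene bodies, triangles are starts of protein-coding transcripts, and sites are drawn with a minimum line width so that narrow ones can be seen. Sites of Kat2b end at 30.9 kb apart from 2 at 83 to 84 kb, those of Hdac4 occur in groups up to 240.5 kb, and Crebbp has 1 narrow site 74.5 kb inside the gene.

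Hdac4 was the gene with the largest number of sites. Its body of 266.921 kb was covered by sites to 11.2%. The sites fell into 20 groups when those less than 1 kb apart were joined. The largest group comprised 10 sites between +7482 and +17536 bp and included the sites on both sides of the coding starts of Hdac4-202 and Hdac4-205. Of its 10055 bp, 8112 bp were in sites. A second group of 6 sites covered 5437 bp from +63046 bp onward, with a site of 1892 bp, and lies in intron 1 of Hdac4-201, numbered by that transcript. This intron alone held 24 of the 41 intronic sites, between 49.6 and 134.1 kb from the 5′ end, and 7 of them were wider than 1000 bp, up to 1952 bp. A further 12 lay upstream of the start of Hdac4-201, 4 in intron 2 and 1 in intron 19. The 12 include the site of 798 bp just upstream of the coding starts of Hdac4-202 and Hdac4-205. Its CpG ratio was 0.680, and its middle lay 647 bp from a TSS. Of 4 sites that overlapped exons, 1 of 1109 bp, which ended at +240498 bp, overlapped coding sequence. The longest stretch of the gene without a site measured 48.3 kb.

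Kat2b, with 105.86 kb, had 13 of its 15 intronic sites in intron 1, between +2755 and +30858 bp. The widest, of 1568 bp, exceeded the 5′ site, and another measured 1291 bp. A site of 1024 bp holds the start of the coding transcript Kat2b-203 at +17265 bp. It had a CpG ratio of 0.236 and thus differed in composition from the 5′ site (0.786). The remaining 2 intronic sites, of 205 and 200 bp, lie in intron 9. Between the groups 52.2 kb, or 49.3% of the gene, had no site.

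Hdac3 is a short gene of 19.173 kb with 5 intronic sites. Of these, 4 were in intron 3 and 1 of 378 bp in intron 2. The widest, of 1313 bp, exceeded the 5′ site of 980 bp, and the other 3 in intron 3 measured 200 to 230 bp. The 4 sites of intron 3 formed a group of 2376 bp. An additional site of 238 bp overlapped an exon. From 7.04 kb to the 3′ end, the gene was free of sites.

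The single intronic sites of Crebbp (280 bp, intron 3) and Hdac1 (326 bp, intron 1) and the 3 of Ep300 (202 to 280 bp, introns 2 and 8) were all narrow. In Ep300, 2 of the 3 consisted of more than 50% repeat-masked sequence, compared with 6 of all 66 intronic sites. Crebbp had a stretch of 73.3 kb without a site, from 1.24 to 74.5 kb, which is 55.2% of the gene. Hdac2 had no site over the last 26.3 kb, or 96.3% of its length. Kat2a likewise had none in the last 6.95 kb. In Brd2 no site was purely intronic, because each of the 3 sites downstream of the 5′ site (1524, 960 and 417 bp) overlapped coding exons and starts of further Brd2 transcripts. With gaps of 55 bp and more, the 6 Brd2 sites formed 1 group of 9784 bp, and 56.6% of the gene body was in sites, the highest share among the 9 genes.

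**Figure D3:**
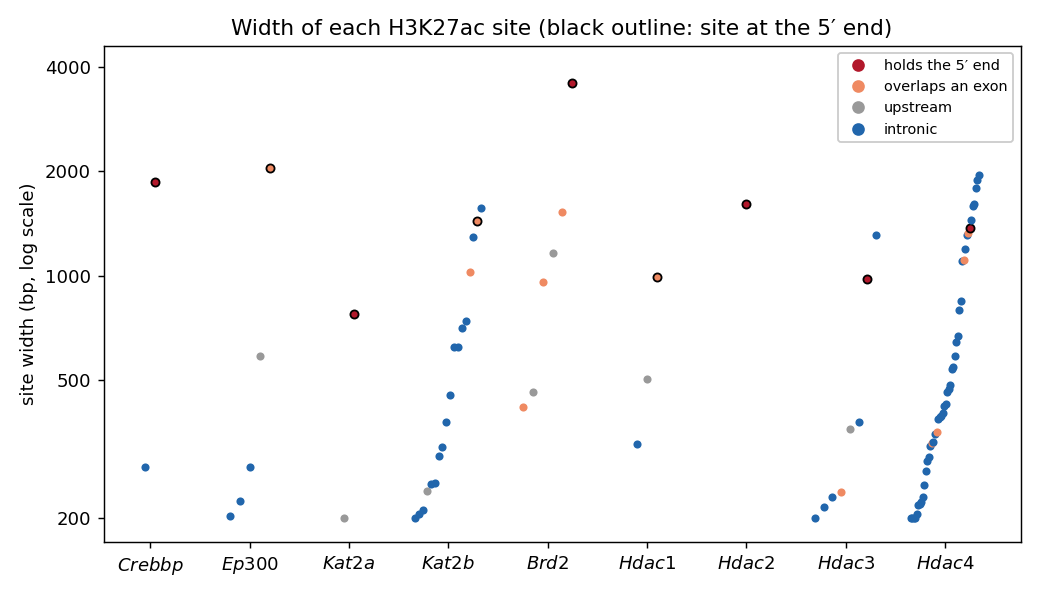
Width in bp (log scale) of each of the 91 sites, by gene, ordered within a gene by width and coloured by place; a black outline marks the site at the 5′ end. The outlined site is the widest in 6 genes, whereas in Kat2b, Hdac3 and Hdac4 intronic sites of 1568, 1313 and 1952 bp are wider.

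Over all 91 sites the median width was 427 bp, compared with 401 bp for the whole list. Sites wider than 1000 bp numbered 23 (25.3%), compared with 15.9% of the list. Brd2 contributed the widest site, Hdac4 12 sites above 1000 bp and Kat2b 4. The narrowest width of the list, 200 bp, was that of 7 of the 91 sites, 4 of them at Hdac4. This width forms the lower limit of the list, with 7054 sites.

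The number of sites was then set beside gene length, because longer genes have more room for sites. Among the 1922 genes of 100 to 300 kb the median was 8 sites, with quartiles of 3 and 18. Crebbp, of 132.67 kb, with 2 sites lay at percentile 21.4 of this class, Kat2b with 18 at 74.4 and Hdac4 with 46 at 92.6. Crebbp and Kat2b, of similar length, thus lay far apart. Ep300, of 66.727 kb, with 5 sites lay at percentile 67.5 of genes of 30 to 100 kb, for which the median was 3. In the class of 10 to 30 kb with a median of 1 site, Hdac3 was at percentile 95.8, Brd2 at 92.0, Hdac1 at 73.4 and Hdac2 at 41.2. Kat2a was at percentile 79.2 of the genes under 10 kb.

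Expressed per 10 kb of the gene body together with the 5 kb upstream, the order changed. The added 5 kb lowers this value most in short genes such as Kat2a and Brd2. Brd2 had 3.84 sites per 10 kb and Hdac3 3.31, ahead of Hdac4 with 1.69, Kat2b with 1.62 and Kat2a with 1.57. Hdac1 (0.949), Ep300 (0.697), Hdac2 (0.309) and Crebbp (0.145) followed. The share of the gene body in sites gave a similar order at the top, with 56.6% for Brd2 and 18.5% for Hdac3. It was 11.2% for Hdac4, 10.0% each for Kat2a and Kat2b, 4.96% for Hdac1, 4.12% for Ep300, 3.67% for Hdac2 and 1.15% for Crebbp. Crebbp combined a wide 5′ site with the lowest share of the 9. Since there is 1 joined list, it cannot be said which neighbours in these orders differ beyond the spread between libraries.

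**Figure D4:**
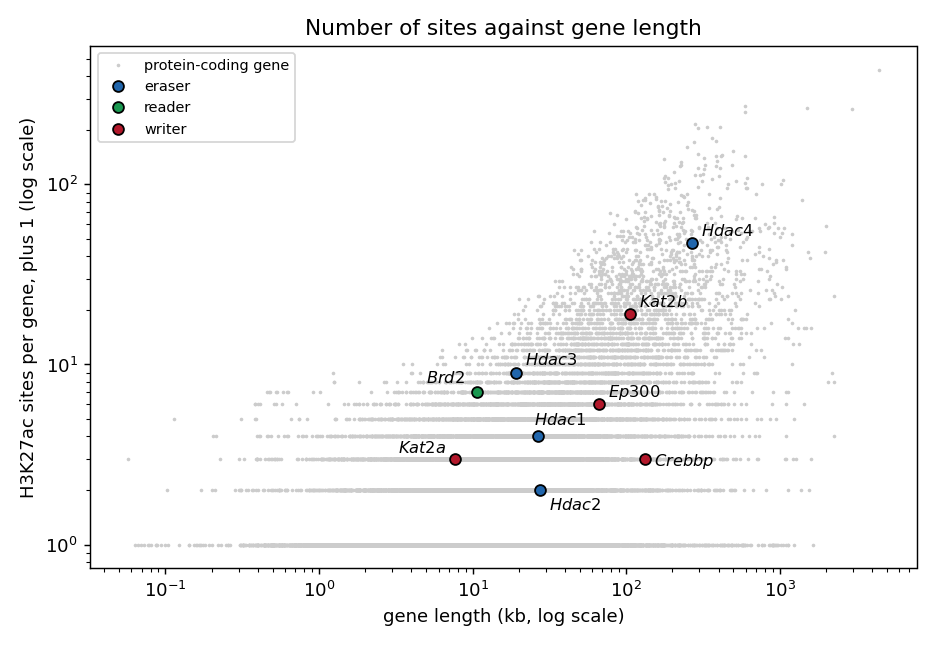
Number of sites in the gene body and 5 kb upstream, plus 1, against gene length in kb (both log scales) for 21755 protein-coding genes (grey) and the 9 genes (coloured by role). Crebbp (2 sites) lies low and Hdac4 (46 sites) high among genes of 100 to 300 kb.

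The paralogues can be set side by side. Crebbp and Ep300 had 5′ sites of 1859 and 2046 bp, and 1 and 3 intronic sites. Kat2a and Kat2b had 5′ sites of 773 and 1440 bp, and 0 and 15 intronic sites, in genes of 7.72 and 105.86 kb. For Hdac1 and Hdac2 these values were 993 and 1608 bp, and 1 and 0 intronic sites. The 2 genes with many intronic sites were a writer, Kat2b, and an eraser, Hdac4.

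Motifs of factors that act at fibroblast enhancers were searched in the central 200 bp of the 63 intronic sites more than 1 kb from any TSS, on both strands. The AP-1 motif (TGANTCA), bound by FOS and JUN proteins, was found in 2 of them (3.17%). It was found in 8.84% of the 99286 sites of the list more than 1 kb from any TSS, intronic or not, which serve as comparison below. None of the 39 at Hdac4 had it. The TEAD motif (GGAATG) was found in 7 (11.1%, compared with 12.9%) and the RUNX motif (TGTGGT) in 14 (22.2%, compared with 16.8%). Of these 14, 6 were at Hdac4 and 5 at Kat2b. The motifs do not contain one another. Sites of 1 gene are neighbours and not independent, and these shares were not tested.

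The other genes of the acetylation machinery were examined for comparison, as lists of 51 genes. The 5′ end lay inside a site in 36 of the 51 (70.6%), compared with 6 of 9 members and with 36.5% of all genes. With the tolerance of 50 bp it was 41, and 47 had a site within 1 kb. Among 9 further writers 8 had the 5′ end in a site, Kat6b having none within 1 kb in spite of 19 sites in all. Among 12 readers there were 10, and Brd3 was without a site within 1 kb. The 14 further erasers were Hdac and Sirt genes, listed by family and not by substrate. Of these, 7 had the 5′ end in a site. Hdac7 and Hdac9 had none within 1 kb of the outermost 5′ end but 13 and 30 sites in the gene. Both encode class IIa enzymes, as do Hdac4 and Hdac5, and the latter had a site of 1082 bp 15 bp from its 5′ end.

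Of 10 eraser partners, which are subunits of the corepressor complexes, 8 had the 5′ end in a site. The widest 5′ site of all 51 genes was that of Mta1, a NuRD subunit, with 3773 bp. Of the 6 partners of GCN5 and PCAF 3 had the 5′ end in a site and 6 a site within 1 kb. At least 1 intronic site was present in 26 of the 51 genes (51.0%) and in 6 of the 9 members (66.7%). These shares do not take gene length into account. Over all protein-coding genes the median number of intronic sites was 0 at 10 to 30 kb and 6 at 100 to 300 kb. The number of sites had a median of 4 over the 51 genes. The median width of the 5′ site was 1278 bp over the 51 genes, compared with 1440 bp over the 9.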

How the data were processed

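Per the labels, H3K27ac ChIP-seq was carried out in iMEF cells in 14 libraries. The authors used Trim Galore for trimming, BWA for alignment to mm10 and SAMtools for filtering to ENCODE standards. Replicates were merged with Picard, and MACS (MACS2 in the submitters' processing notes) was used to call narrow peaks. Whether peaks were called on merged or single libraries was not stated. The version, the threshold and the way peaks were joined were not given in the sources used here. The deposited values are positions (chromosome, start and end in bp), with no count, score or library. A width can therefore exceed that in any single library, merging or splitting of peaks changes the number of sites, and read depth is unknown. The planned edgeR test of the 5 time points against control needs read counts and was not carried out.

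Starts were read as counted from 0, since the narrowest sites then measure 200 bp, and are printed counted from 1. Genes and transcripts were those of GENCODE M21 (GRCm38), sequence that of GRCm38.p6, an earlier gene release than that of the authors. Distances are in bp from the outermost annotated 5′ end of a gene, at 0, in transcript direction. Introns are numbered by a representative coding transcript. Sites less than 1 kb apart formed a group. Percentiles give the position of a gene among all genes of the class. Motifs were searched on both strands. The members and the lists of other genes were chosen with earlier results of these data known. For each member the site at the 5′ end, the widest site and the range of the others are named, and other genes are named for the widest or uncovered 5′ ends, with Hdac5 added after its values were seen. The values of 1 gene of the lists are not reported here. Look-ups were tested on simulated sites. Alternatives for overlap, 5′ end, introns, narrow sites and joining were computed. Versions were Python 3.11.15, pandas 2.3.3, numpy 2.4.6, scipy 1.17.1 and matplotlib 3.10.9.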

Additional observations from a re-analysis of the deposited data

How the results depend on the processing

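Joining sites less than 1 kb apart changed the most. The 91 sites became 40, the 66 intronic sites became 27, and the median width rose from 427 to 1574.5 bp. Without the narrowest 25% of the list the median width was 622.5 bp, while 68 sites and 46 intronic sites were left. This width lay outside the 95% binomial interval of the median of the 91 sites (353 to 587 bp). The interval covers counting only and treats the sites as independent, which sites of 1 gene are not. It is used here as a limit and gives no error between libraries. The remaining summaries, 23 of 27 alternatives, stayed within 1.5-fold or that interval. The number of genes with the 5′ end inside a site ranged from 6 to 9. It was 7 with starts of coding transcripts, with site starts counted from 1, and with RefSeq 5′ ends (an alternative chosen after seeing the data, as was the tolerance of 50 bp), and 9 when neighbouring sites were joined. For the 51 other genes it ranged from 35 to 49, the latter with any coding start. Of 162 alternatives for single genes, 35 moved by more than 1.5-fold, most of them counts under 10. No paired analysis was possible because positions carry no replicate number. Leaving out a replicate was not possible either, and depth limits cannot be given from positions.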
